A study of Homo sapiens with 12 samples.

Results

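The human genome keeps many of its KRAB zinc-finger genes on chromosome 19. The genes described here are the 246 protein-coding genes of that chromosome whose symbol is ZNF followed by a number and at most 1 letter, out of 58735 genes in the count table and 1472 protein-coding genes of the chromosome. Of the 246 members, 168 had enough counts to be tested and 78 did not, and 27 of these 78 had no count in any library. The other 51 untested members reached at most 15 counts in a library. The deposited annotation of transcription factor families placed 238 of the 246 in the zf-C2H2 family.

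A zinc-finger protein of this kind reads DNA through a row of C2H2 fingers, each of which contacts a few neighbouring bases. Many of these proteins also carry a KRAB domain, which binds the corepressor TRIM28 (KAP1) and through it brings the histone methyltransferase SETDB1 and HP1 proteins to the bound site. The genes multiplied by tandem duplication, many of the proteins silence transposable elements, and several are silenced by promoter methylation in tumors.

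The study asked how GFI1, a zinc-finger repressor of blood cell development, changes cancer cells that lose contact with their substrate. A549 is a human lung adenocarcinoma line that grows attached. Control A549 cells and A549 cells that expressed GFI1 from a lentivirus were either left attached and untreated or forced into suspension for 48 hours, which gave 4 groups of 3 RNA-Seq libraries called attached control, attached GFI1, floating control and floating GFI1. All 4 groups came from the same line, and the GFI1 cells used for sequencing had been sorted for the GFP that the vector carries. Whether an empty vector was present in the control cells is not given by the labels, nor whether the 3 libraries of a group came from separate cultures, and p-values thus measure the spread between these libraries, which may be technical.

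Total counts were between 17014188 and 20748677 per library. GFI1 itself lay between 0.238 and 0.711 CPM (counts in 1000000 counts of the library, after TMM scaling) in the control libraries. It lay between 286 and 294 CPM in attached GFI1 libraries and between 430 and 706 CPM in floating GFI1 libraries. The log2 fold change of GFI1 after suspension of GFI1 cells was 0.95 ± 0.10 (SE, adjusted p = 2.38e-08). Comparisons between the states of GFI1 cells thus also differ in the level of GFI1. Of 12 markers of the A549 line, KRT8, KRT18, AKR1B10, AKR1C1, ALDH1A1 and ALDH3A1 reached at least 396 CPM in every library but moved with GFI1, with log2 fold changes in attached cells of -1.64, -2.01, -2.68, 1.08, -1.45 and 0.94 in that order. Of the others, CDH1 lay at 82.8 to 122 CPM in control and 3.64 to 7.11 CPM in GFI1 libraries, and EPCAM, NKX2-1, NAPSA, SFTPB and SFTPC did not pass 3.75 CPM. At these low levels EPCAM and NKX2-1 still moved with GFI1 in attached cells, by -1.91 and 1.93 on the log2 scale (adjusted p = 2.95e-05 and 0.00338). NAPSA had no call there (0.13), and SFTPB and SFTPC were not tested. Of 7 markers of other cell types, CD3E and DCN had no count, PTPRC, CD68 and PECAM1 did not pass 0.551 CPM, COL1A1 lay at 8.33 to 13.9 CPM in control and 2.92 to 6.87 CPM in GFI1 libraries, and CDH5 at no more than 0.178 CPM in control and 2.54 to 4.43 CPM in GFI1 libraries. The part of these markers in the members' results was not tested. Before TMM scaling, the members took 0.196% to 0.214% of the raw counts of control libraries and 0.256% to 0.280% of those of GFI1 libraries. In bulk RNA, fewer cells of a type and less RNA per cell cannot be told apart.

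The members fell into 16 groups along the chromosome when a group was ended by a gap of more than 1 Mb between the starts of neighbouring members. The 9 groups that held 5 members or more, 235 members in all, are called clusters here. In GRCh38 coordinates of the deposited table, and named by their first and last members, they were ZNF554–ZNF77 (chr19:2819874-2944971, 5 members), ZNF557–ZNF846 (chr19:7069444-9793180, 15 members), ZNF653–ZNF791 (chr19:11483427-12640098, 25 members) and ZNF101–ZNF254 (chr19:19668796-24129961, 37 members, called the pericentromeric cluster here). Further along lay ZNF302–ZNF792 (chr19:34677639-34964049, 5 members), ZNF565–ZNF573 (chr19:36182060-37817300, 26 members), ZNF575–ZNF296 (chr19:43525497-45076588, 24 members), ZNF175–ZNF331 (chr19:51571298-53580269, 39 members) and ZNF628–ZNF446 (chr19:55476332-58481230, 59 members). How many members of a cluster could be tested differed widely. All 24 members of ZNF575–ZNF296 and 55 of the 59 members of ZNF628–ZNF446 were tested, against 12 of 37 in ZNF101–ZNF254, 10 of 25 in ZNF653–ZNF791 and 18 of 39 in ZNF175–ZNF331. ZNF101–ZNF254 alone held 13 of the 27 members without any count.

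The clusters also differed in their promoters. RefSeq promoters (GRCh38.p14, 250 bases before to 50 bases after the start) were matched by symbol for 215 of the 246 members, and short motifs were searched in them on both strands. CCAATCA, which holds the CCAAT box bound by NF-Y, was present in 55 of the 58 member promoters of ZNF554–ZNF77, ZNF653–ZNF791 and ZNF101–ZNF254 and in 8 of the other 157, against 7.28% of all 27305 promoters in the table. TCTGGGAA was present in 14 of 20 promoters of ZNF575–ZNF296 and 12 of 24 of ZNF565–ZNF573, in 17.7% of all members' promoters and in 2.86% of all promoters. CCGGAAG, which holds the core of ETS factor sites, was present in 45.6% of the members' promoters and 10.7% of all. These 3 motifs were chosen after the promoters had been read. The 8 stretches below are shown because they belong to members whose levels moved with GFI1 and show how neighbours share promoter sequence. These motifs are in capitals on whichever strand they lie. Since the genes were picked by their changes, the stretches do not show how often a motif goes with a rise or a fall. Calls are counted by motif further below. ZNF799, which fell in both states, held TCTGGGAA but is not among the genes shown. The first 4 genes were lower with GFI1 in both culture states and the last 4 were higher in both. Each stretch is written along its gene's strand, lies before the gene's start and stays outside the gene's span in the deposited table and in GENCODE v44.
ZNF57 (chr19:2900678-2900897, plus strand): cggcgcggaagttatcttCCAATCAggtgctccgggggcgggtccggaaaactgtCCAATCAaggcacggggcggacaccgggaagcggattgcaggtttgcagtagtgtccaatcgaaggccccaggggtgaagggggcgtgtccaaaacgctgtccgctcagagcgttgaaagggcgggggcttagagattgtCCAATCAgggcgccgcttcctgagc
ZNF823 (chr19:11739010-11739196, minus strand): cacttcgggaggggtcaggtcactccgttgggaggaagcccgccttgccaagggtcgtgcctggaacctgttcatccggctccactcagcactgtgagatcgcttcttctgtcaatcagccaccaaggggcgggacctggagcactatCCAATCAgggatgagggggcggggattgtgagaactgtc
ZNF443 (chr19:12441113-12441271, minus strand): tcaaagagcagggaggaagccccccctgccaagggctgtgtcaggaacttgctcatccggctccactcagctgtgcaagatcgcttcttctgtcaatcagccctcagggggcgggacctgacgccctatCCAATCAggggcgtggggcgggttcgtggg
ZNF714 (chr19:21081953-21082158, plus strand): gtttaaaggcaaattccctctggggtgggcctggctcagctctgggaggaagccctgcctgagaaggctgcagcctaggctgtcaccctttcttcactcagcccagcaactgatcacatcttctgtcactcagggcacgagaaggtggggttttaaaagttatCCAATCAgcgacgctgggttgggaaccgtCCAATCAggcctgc
ZNF222 (chr19:44025129-44025341, plus strand): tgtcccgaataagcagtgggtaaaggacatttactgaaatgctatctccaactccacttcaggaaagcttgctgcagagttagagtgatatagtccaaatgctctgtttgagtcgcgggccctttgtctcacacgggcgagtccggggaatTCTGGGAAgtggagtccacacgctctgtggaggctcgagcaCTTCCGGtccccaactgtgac
ZNF224 (chr19:44094111-44094338, plus strand): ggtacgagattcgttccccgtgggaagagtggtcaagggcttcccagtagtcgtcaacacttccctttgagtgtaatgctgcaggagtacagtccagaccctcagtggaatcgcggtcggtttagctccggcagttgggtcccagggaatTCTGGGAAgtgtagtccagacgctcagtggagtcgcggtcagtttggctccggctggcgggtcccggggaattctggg
ZNF226 (chr19:44164850-44165072, plus strand): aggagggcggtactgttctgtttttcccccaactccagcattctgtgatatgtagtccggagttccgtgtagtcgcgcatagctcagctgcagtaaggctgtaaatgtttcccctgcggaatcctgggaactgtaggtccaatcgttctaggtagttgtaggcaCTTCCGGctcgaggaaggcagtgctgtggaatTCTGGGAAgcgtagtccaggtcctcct
ZNF671 (chr19:57727625-57727874, minus strand): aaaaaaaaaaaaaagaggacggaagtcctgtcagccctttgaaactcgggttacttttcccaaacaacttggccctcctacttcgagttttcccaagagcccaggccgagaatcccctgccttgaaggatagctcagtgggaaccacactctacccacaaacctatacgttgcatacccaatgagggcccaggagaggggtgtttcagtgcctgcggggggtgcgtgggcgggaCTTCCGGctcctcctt
CCAATCA occurred 3 times in the stretch of ZNF57, 2 times in that of ZNF714 and 1 time each in those of ZNF823 and ZNF443. ZNF222, ZNF224 and ZNF226 each held TCTGGGAA preceded by the same letters GGAAT, and ZNF671, from another cluster, held neither CCAATCA nor TCTGGGAA but 1 copy of CCGGAAG.

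In attached cells, the RNA of most tested members was higher with GFI1. Of the 246 members, 91 were higher and 16 were lower in attached GFI1 than in attached control libraries at an adjusted p of 0.05 or less, 61 were tested without a call and 78 were not tested. Among tested members the called shares were 54.2% higher and 9.52% lower, where 29.5% of all 17829 tested genes were called higher and 32.8% lower. The median log2 fold change was 0.35 over the 168 tested members and -0.01 over all tested genes. Only 4 of the tested members reached the count minimum in the 3 libraries of 1 group alone, and in a fit limited to genes with at least 10 counts in every library the members called were 95 higher and 14 lower of 159. Libraries were scaled by TMM, with factors of 0.939 to 0.971 in controls and 1.04 to 1.06 in GFI1 libraries, and without this scaling the median of all genes rose to 0.14 and 7 members in place of 16 were lower.

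**Figure D1:**
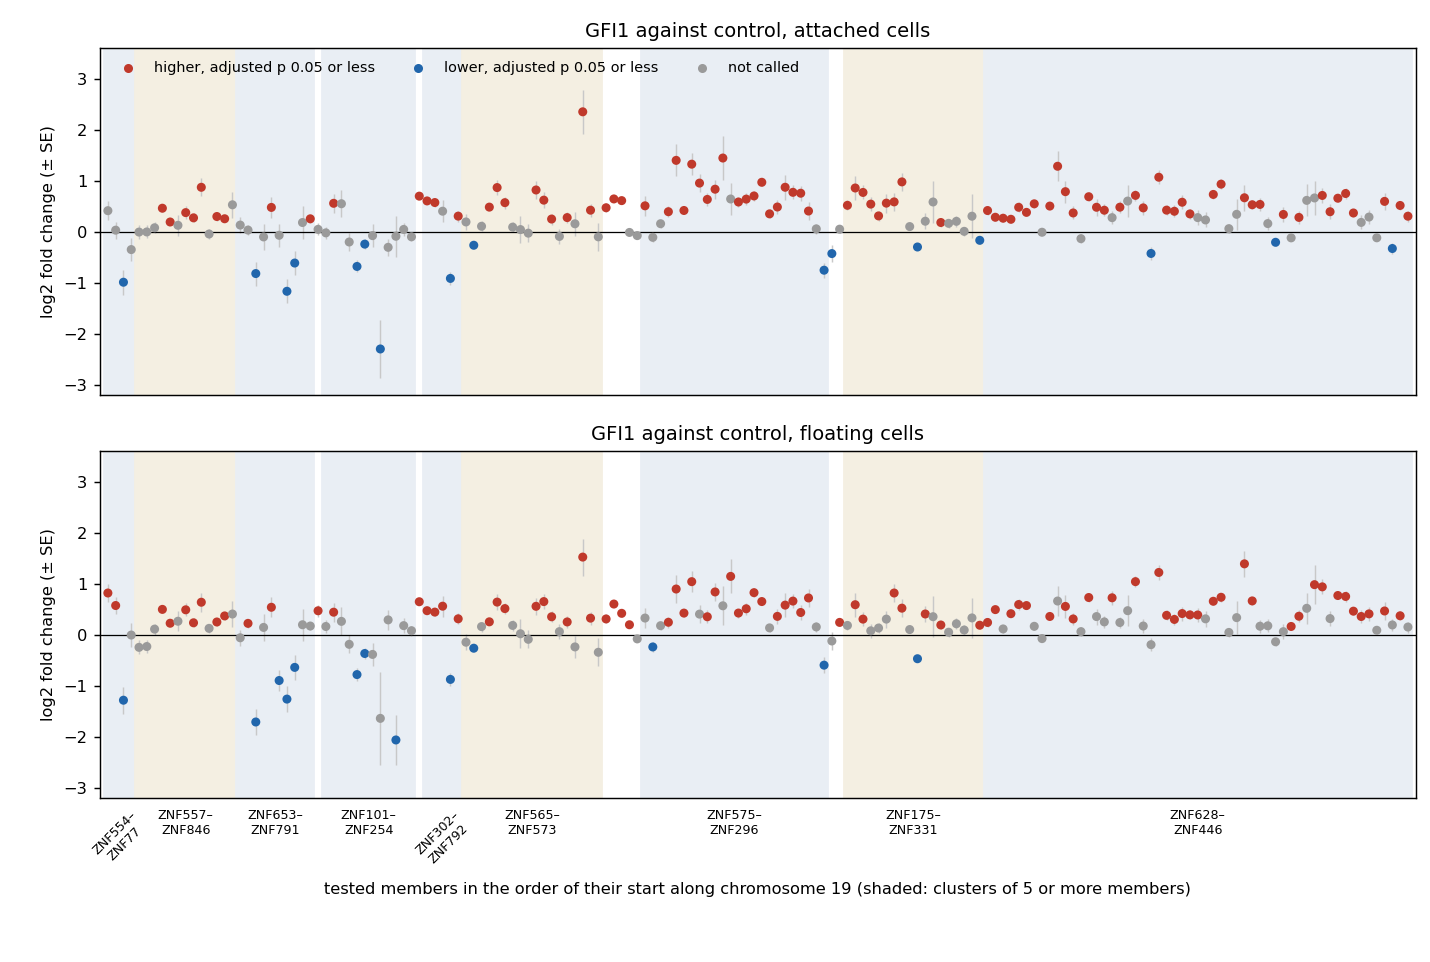
Log2 fold change with its standard error (vertical axis) of the 168 tested members in the order of their start along chromosome 19 (horizontal axis), in attached cells (top) and floating cells (bottom), with clusters shaded and points coloured by call. In ZNF575–ZNF296 and ZNF628–ZNF446 most points lie above 0, while the points furthest below 0 lie in ZNF554–ZNF77, ZNF653–ZNF791, ZNF101–ZNF254 and ZNF302–ZNF792.

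The balance of calls is given by cluster. In ZNF575–ZNF296, 19 of 24 members were higher and 1 was lower with GFI1, with a median log2 fold change of 0.64 and values from -0.75 to 1.45. In ZNF628–ZNF446, 37 were higher and 3 lower of 55 tested members, with a median of 0.42 and values from -0.42 to 1.29. ZNF557–ZNF846 had 7 higher and 0 lower of 13, and ZNF565–ZNF573 and ZNF175–ZNF331 had 9 higher each, with 1 and 2 lower of 18. In contrast, ZNF653–ZNF791 had 2 higher and 3 lower of 10 tested members and ZNF101–ZNF254 had 1 higher and 3 lower of 12, with medians of -0.01 and -0.09. Members next to each other within a cluster had the same sign in 112 of 153 pairs, with a Pearson r of 0.345 across pairs. With 131 of 168 tested members above 0, many pairs share a sign whatever their position, and overlapping genes may share counts, so these values are a description only.

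**Figure D2:**
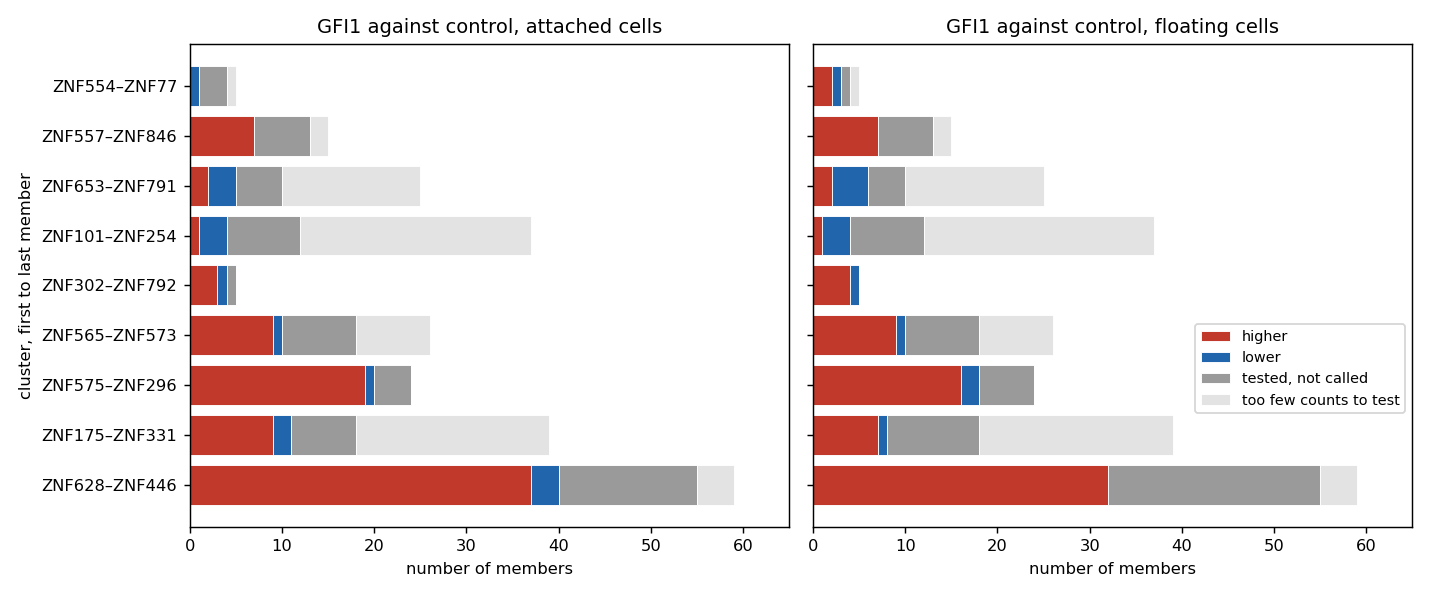
Number of members (horizontal axis) of each cluster of 5 or more members (vertical axis) that were higher, lower, tested without a call or not tested, in attached cells (left) and floating cells (right). ZNF575–ZNF296 had 19 higher and 1 lower in attached cells, and ZNF101–ZNF254 had 25 of its 37 members untested.

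Members named for large GFI1 or suspension changes, here and below, were picked among called members whose 2 groups did not overlap. Their lack of overlap was thus fixed by the choice and adds no support. Within ZNF575–ZNF296, the KRAB gene ZNF226 measured 18.5, 18.5 and 17.3 CPM in attached control and 34.9, 35.9 and 35.8 CPM in attached GFI1 libraries, and the groups did not overlap. The log2 fold change was 0.97 ± 0.06 (SE, adjusted p = 1.35e-12), a 1.96-fold rise. ZNF224, a KRAB repressor first studied on the aldolase A gene, measured 13, 14.3 and 13.5 CPM in attached controls and 19.6, 21.1 and 20.5 CPM with GFI1. Its groups were also separate, and its log2 fold change was 0.59 ± 0.09 (SE, adjusted p = 3.49e-06). The less abundant ZNF221 measured 1.79, 1.47 and 1.21 CPM in attached controls and 3.72, 4.06 and 3.4 CPM with GFI1, a log2 fold change of 1.33 ± 0.22 (SE, adjusted p = 8.04e-06). The largest change among members with a mean of at least 1 CPM was that of ZNF404, at 0.834, 0.543 and 0.631 CPM in attached control and 1.07, 1.98 and 2.2 CPM in attached GFI1 libraries, a log2 fold change of 1.40 ± 0.32 (SE, adjusted p = 0.000425). The groups did not overlap. ZNF155 rose by 0.96 ± 0.18 (SE) on the log2 scale and ZNF222 by 0.84 ± 0.19. The member of the cluster that fell was ZNF296, at 8.1, 7.44 and 5.85 CPM in attached control and 4.39, 4.48 and 3.86 CPM in attached GFI1 libraries, a log2 fold change of -0.75 ± 0.15 (SE, adjusted p = 0.000107).

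In ZNF628–ZNF446, at the end of the long arm, the protein of ZNF274 recruits SETDB1 to the finger exons of other zinc-finger genes. The gene measured 29.2, 24.4 and 27.7 CPM in attached control and 44.2, 39.6 and 45 CPM in attached GFI1 libraries. Every GFI1 library was above every control library, and the log2 fold change was 0.66 ± 0.07 (SE, adjusted p = 2.41e-08). ZNF211 measured 8.04, 6.84 and 7.86 CPM in attached controls and 14.7, 14.9 and 13.9 CPM with GFI1, with a log2 fold change of 0.94 ± 0.09 (SE, adjusted p = 2.54e-09) and no overlap. ZNF772 rose from 4.47, 3.26 and 4.07 CPM to 6.82, 8.72 and 9.11 CPM, with a log2 fold change of 1.07 ± 0.14 (SE, adjusted p = 3.33e-07), and ZNF582, a gene often methylated in tumors, rose from 0.953, 0.489 and 0.631 CPM to 1.75, 1.8 and 1.5 CPM, with a log2 fold change of 1.29 ± 0.29 (SE, adjusted p = 0.000512). Both genes had groups that did not overlap, as the choice of genes required, though ZNF582 lay below 2 CPM throughout and overlaps 5 other genes. ZNF304, which recruits a silencing complex to the INK4-ARF locus in some tumors, rose by 0.49 ± 0.12 on the log2 scale in attached cells (adjusted p = 0.000782). It had no call in floating cells, except without TMM scaling (0.37, adjusted p of 0.00819), with upper quartile scaling (0.29, 0.035) or without floating control 3 (0.38, 0.0116). ZNF749 was among the 3 lower members of the cluster in attached cells, at -0.42 ± 0.12 (adjusted p = 0.00441), and at -0.27 with an adjusted p of 0.0588 without TMM scaling.

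ZNF616 of the cluster ZNF175–ZNF331 measured 2.14, 2.06 and 2.41 CPM in attached controls and 4.51, 3.55 and 5.06 CPM with GFI1, with no overlap and a log2 fold change of 0.98 ± 0.18 (SE, adjusted p = 3.82e-05). Its neighbour ZNF350 (ZBRK1), a BRCA1-binding repressor of GADD45A, measured 3.99, 5.27 and 4.07 CPM in attached controls and 7.38, 8.26 and 7.21 CPM with GFI1, a log2 fold change of 0.77 ± 0.14 (SE, adjusted p = 2.38e-05). These groups were separate too. In floating cells ZNF350 rose by 0.31, a call lost with DESeq2 (adjusted p of 0.0846) and without the low-count filter (0.0761). That call was also lost without floating GFI1 2 or 3 or floating control 2 or 3 (highest adjusted p of 0.195). The cluster's most abundant gene by length, ZNF480, fell in attached cells, from 34.2, 33.9 and 32.4 CPM to 25.7, 29.1 and 27 CPM, a log2 fold change of -0.29 ± 0.07 (SE, adjusted p = 0.000474).

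The members that fell most in attached cells lay mainly on the short arm and in the pericentromeric cluster. ZNF799 measured 3.1, 3.75 and 2.7 CPM in attached controls and 1.69, 0.969 and 1.65 CPM with GFI1, a log2 fold change of -1.16 ± 0.24 (SE, adjusted p = 0.000144). ZNF443, beside it, measured 1.85, 2.66 and 2.87 CPM and 1.52, 1.57 and 1.75 CPM, a log2 fold change of -0.61 ± 0.23 (SE, adjusted p = 0.0272). Every GFI1 library of these genes was below every control library, but the transcripts of ZNF799 and ZNF443 share 28.2% and 18.1% of their 100-base words with other genes, so their counts are uncertain. The call for ZNF443 was lost without any 1 of 4 libraries (attached GFI1 1 and 2, attached control 2 and 3), with a highest adjusted p of 0.121. It was also lost with DESeq2 (adjusted p of 0.056) and without TMM scaling (adjusted p of 0.0893). ZNF823 measured 2.38, 2.77 and 3.96 CPM in attached controls and 2.2, 1.43 and 1.6 CPM with GFI1, a log2 fold change of -0.81 ± 0.23 (SE, adjusted p = 0.00404), which was -0.58 with an adjusted p of 0.0529 without attached control 3. ZNF57 fell from 2.62, 2.12 and 2.18 CPM to 1.13, 1.15 and 1.2 CPM, a log2 fold change of -0.98 ± 0.24 (SE, adjusted p = 0.00109), with no overlap. ZNF714, in the pericentromeric cluster, fell from 13, 11.9 and 12 CPM to 8.06, 7.62 and 7.51 CPM, a log2 fold change of -0.67 ± 0.12 (SE, adjusted p = 2.18e-05). ZNF30 was an exception by position, since other members of its cluster rose. It measured 8.81, 10.2 and 8.84 CPM in attached controls and 5.07, 4.48 and 5.31 CPM with GFI1, a log2 fold change of -0.91 ± 0.13 (SE, adjusted p = 7.69e-07), while ZNF302 and ZNF181 of the same cluster rose by 0.61 ± 0.06 and 0.58 ± 0.08. Among members of lower mean level, named after their values were seen, ZNF571 (2.35) and ZNF223 (1.45) had the highest log2 fold changes and ZNF738 (-2.29) the lowest, all from means under 1.4 CPM.

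**Figure D3:**
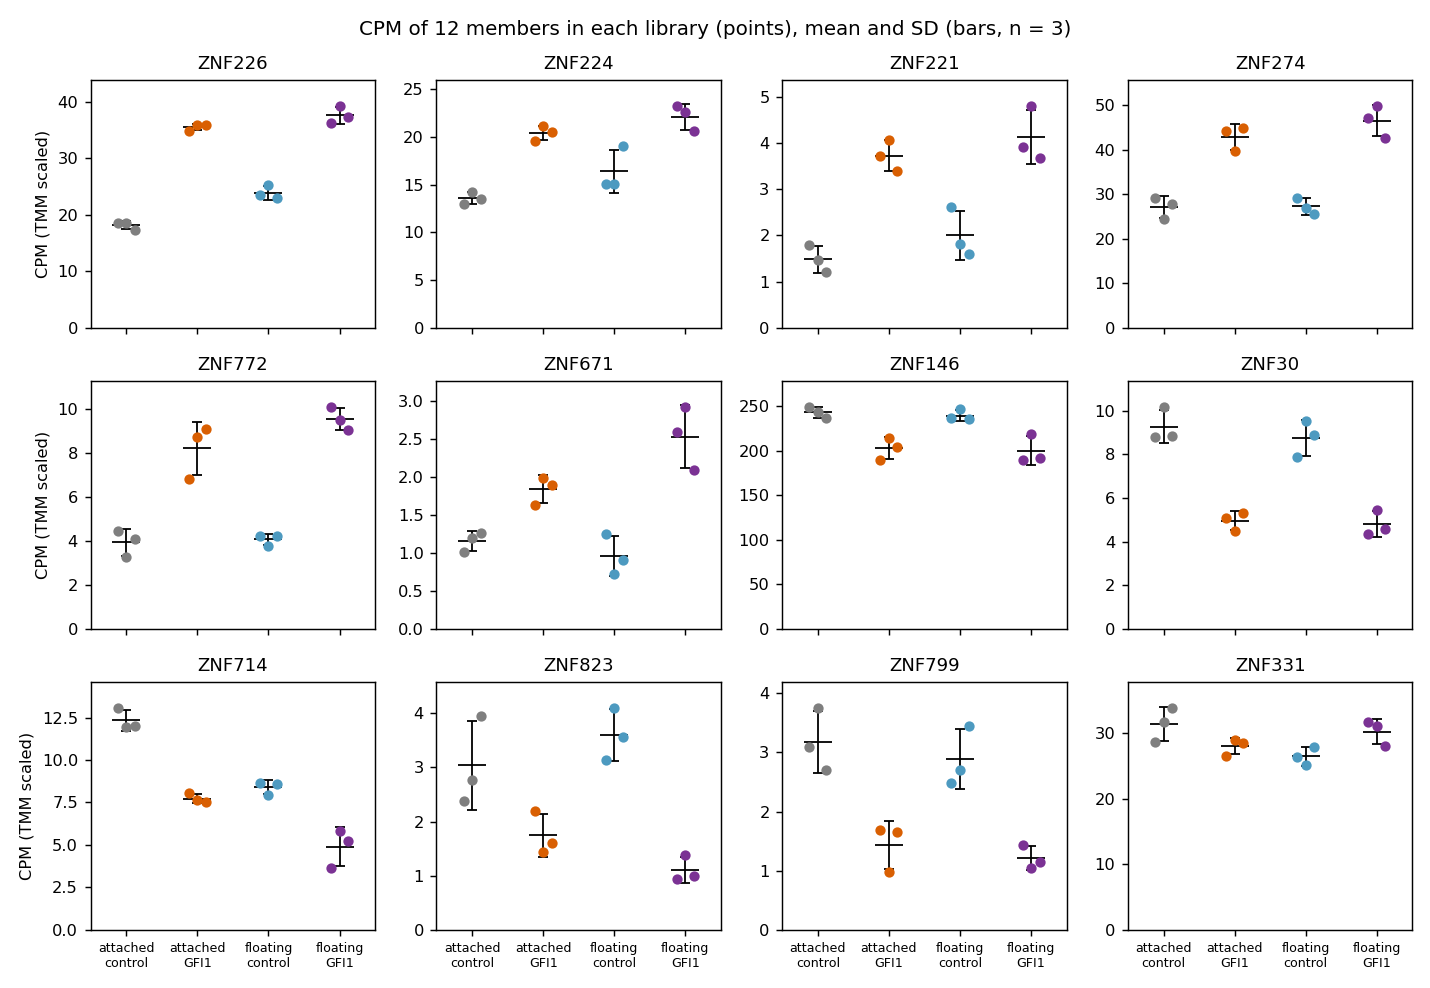
CPM (vertical axes, each from 0) of 12 members in the 12 libraries (points) with the mean and SD of each group of 3 (bars), by group (horizontal axis). The GFI1 libraries lie above the control libraries of the same culture state for ZNF226, ZNF224, ZNF221, ZNF274, ZNF772 and ZNF671, and below them for ZNF146, ZNF30, ZNF714, ZNF823 and ZNF799, while the attached groups of ZNF331 overlap.

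The same question was asked of floating cells, with other libraries. Floating GFI1 libraries had 87 of the 246 members above floating control libraries and 13 below. Among tested members these were 51.8% higher and 7.74% lower, where 29.3% of all tested genes were higher and 31.1% lower, and the median log2 fold change of the members was 0.31. By cluster, 16 members of ZNF575–ZNF296 were higher and 2 lower, 32 of ZNF628–ZNF446 were higher and 0 lower (52 of its 55 tested members had a positive value), and 9 of ZNF565–ZNF573 were higher and 1 lower. ZNF653–ZNF791 had 2 higher and 4 lower, and ZNF101–ZNF254 had 1 higher and 3 lower. DESeq2 called 72 members higher and 12 lower. The floating GFI1 libraries differed from each other more than those of the other groups, with a chi-square per gene of 11.9 between replicates 2 and 3 and of 4.84 and 5.01 for the other pairs, against 2.01 to 3.76 in the other 3 groups. Without floating GFI1 2 there were 69 members higher and 13 lower, and without floating GFI1 3 there were 84 and 12.

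ZNF671, a KRAB-family gene known for promoter methylation in several cancers, had the largest rise in floating cells among members with a mean of at least 1 CPM. It measured 1.24, 0.722 and 0.906 CPM in floating control and 2.59, 2.92 and 2.09 CPM in floating GFI1 libraries, a log2 fold change of 1.39 ± 0.25 (SE, adjusted p = 3.95e-05). The groups were separate, as they were in attached cells, where the values were 1.01, 1.19 and 1.26 CPM and 1.63, 1.98 and 1.9 CPM and the log2 fold change was 0.67 ± 0.25 (SE, adjusted p = 0.0247). The attached call was lost without attached GFI1 2 or 3 or attached control 1, with a highest adjusted p of 0.0856. It was also lost with DESeq2 (adjusted p of 0.0526) and without the low-count filter (adjusted p of 0.0604). ZNF772 measured 4.21, 3.79 and 4.25 CPM in floating controls and 10.1, 9.54 and 9.05 CPM with GFI1, a log2 fold change of 1.22 ± 0.14 (SE, adjusted p = 3.11e-08). ZNF548, close to ZNF772 on the chromosome, measured 6.88, 7.1 and 7.99 CPM and 15.2, 14.5 and 15.6 CPM, a log2 fold change of 1.04 ± 0.10 (SE, adjusted p = 3.39e-09). Neither gene's groups overlapped, as the choice of genes required. ZNF226 measured 23.4, 25.2 and 23 CPM and 36.2, 39.2 and 37.3 CPM in the floating groups, a log2 fold change of 0.65 ± 0.06 (SE, adjusted p = 1.51e-09), and ZNF274 measured 29.2, 26.9 and 25.5 CPM and 47.2, 49.7 and 42.7 CPM, a log2 fold change of 0.77 ± 0.07 (SE, adjusted p = 1.58e-09). ZNF284 rose by 1.15 ± 0.33, although 42.7% of its 100-base words are shared with other genes, and ZNF606, ZNF221, ZNF404 and ZNF222 rose by 0.94, 1.04, 0.90 and 0.84 on the log2 scale.

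The largest fall in floating cells among these members was that of ZNF823, at 3.14, 4.09 and 3.57 CPM in floating control and 0.938, 1.38 and 0.995 CPM in floating GFI1 libraries. No library overlapped, and the log2 fold change was -1.70 ± 0.25 (SE, adjusted p = 1.87e-06). ZNF57 measured 1.96, 1.57 and 2.55 CPM and 0.938, 0.717 and 0.846 CPM, a log2 fold change of -1.28 ± 0.27 (SE, adjusted p = 0.000186), and ZNF799 measured 2.49, 2.71 and 3.46 CPM and 1.43, 1.05 and 1.14 CPM, a log2 fold change of -1.25 ± 0.25 (SE, adjusted p = 0.00011). ZNF714 measured 8.65, 7.95 and 8.61 CPM and 3.64, 5.84 and 5.22 CPM, a log2 fold change of -0.78 ± 0.13 (SE, adjusted p = 1.89e-05). All 3 genes were lower in each GFI1 library than in any floating control library. ZNF44 was called in floating cells with a log2 fold change of -0.89 ± 0.21 (adjusted p = 0.000831) and had a value of -0.06 ± 0.22 in attached cells, but the difference between the states did not pass the test (adjusted p = 0.0895). ZNF30, ZNF443 and ZNF296 had log2 fold changes of -0.87, -0.63 and -0.59. The call for ZNF443 was again lost without any 1 of 4 floating libraries (GFI1 1 and 2, control 1 and 2), with a highest adjusted p of 0.106. It was also lost without TMM scaling (adjusted p of 0.069).

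Since the attached and floating comparisons share no library, their members can be set against each other. There were 71 members higher in both states, which were 78.0% of those higher in attached cells and 81.6% of those higher in floating cells. A further 10 were lower in both, 62.5% of the attached and 76.9% of the floating list, and 43 were called in neither. ZNF331 alone had calls of opposite sign, -0.16 in attached and 0.19 in floating cells, and the attached call was lost under 7 alternatives, with adjusted p from 0.0556 with the replicate block to 0.868 with library size only (0.102 with DESeq2), and without any 1 of 7 libraries (attached GFI1 1 and 3, attached control 2 and 3, floating GFI1 1 and 2, floating control 1). The floating call was lost without floating GFI1 1 or 2 or floating control 1 or 2 (highest adjusted p of 0.114). Across the 168 tested members the log2 fold changes of the states had a Pearson r of 0.814 and a Spearman rho of 0.833, and 152 (90.5%) had the same sign, which is a description across genes of 1 cell line. Over all tested genes, 77.5% of those higher in attached cells were also higher in floating cells and 78.1% the reverse, the shares of lower genes were 81.4% and 85.8%, 84.8% had the same sign, and r was 0.897 and rho 0.845. Nothing particular to the members is read from their overlap. By cluster, 26 members of ZNF628–ZNF446 and 15 of ZNF575–ZNF296 were higher in both states. The 10 lower in both were ZNF57, ZNF823, ZNF799, ZNF443, ZNF714, ZNF431, ZNF30, ZNF146, ZNF296 and ZNF480, of which 6 lie in the clusters ZNF554–ZNF77, ZNF653–ZNF791 and ZNF101–ZNF254.

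**Figure D4:**
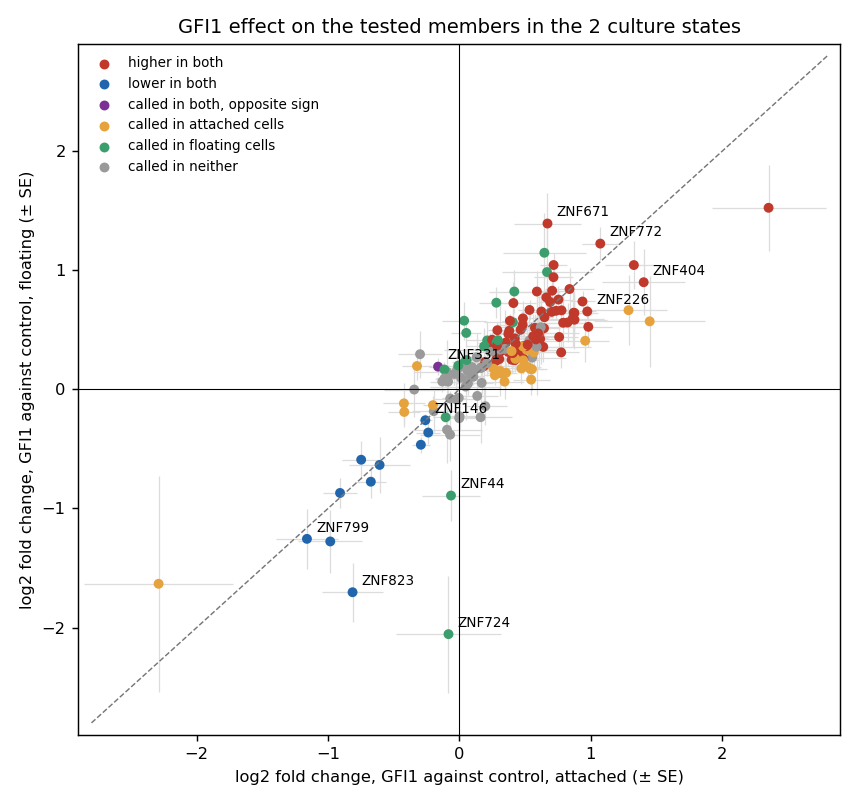
Log2 fold change of GFI1 against control in attached cells (horizontal axis) and in floating cells (vertical axis) of the 168 tested members, with standard errors as grey lines, colours for the calls and a dashed line of equal change. Most points lie above 0 on both axes, 71 members were higher in both states and 10 lower in both, and ZNF331 had calls of opposite sign.

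The most abundant member did not follow the majority. ZNF146 (OZF) encodes a protein of fingers with no KRAB domain, is overexpressed in several carcinomas, and had a mean of 53.5 FPKM (CPM per 1000 bases of gene length), where the next members, ZNF580 and ZNF428, had 18.9 and 18.7 FPKM. ZNF146 measured 249, 244 and 237 CPM in attached control and 190.3, 215 and 204 CPM in attached GFI1 libraries, a log2 fold change of -0.26 ± 0.05 (SE, adjusted p = 0.000115). In floating cells it measured 237, 247 and 235 CPM in controls and 190.0, 219 and 192 CPM with GFI1, a log2 fold change of -0.26 ± 0.05 (SE, adjusted p = 0.000126). Each GFI1 library was below each control library in both states, though without TMM scaling the attached value was -0.11 with an adjusted p of 0.0517. Members were in general scarce. The median member had 0.729 FPKM and the median tested member 1.57 FPKM, against 3.45 FPKM for all tested genes, and 81 members were below 0.1 FPKM while 10 were above 10 FPKM. ZNF580, the most abundant of ZNF628–ZNF446, rose by 0.38 ± 0.06 in attached and 0.58 ± 0.06 in floating cells, but it overlaps CCDC106 and ZNF581, and whether the counting used strand was not given in the sources used here.

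Several members with known roles could not be tested or had no call. ZNF93 and ZNF91, which silence LINE and SVA elements, lie in the pericentromeric cluster. ZNF93 had no count in 11 of 12 libraries and 0.10 CPM in attached GFI1 3, and ZNF91 lay between 0.165 and 0.507 CPM. ZNF382, ZNF471, ZNF568 and ZNF649, of which the first 2 are known as genes methylated in tumors, did not pass 0.441 CPM in any library. ZNF420 (Apak), an inhibitor of p53, had log2 values of -0.02 ± 0.18 in attached and -0.08 ± 0.18 in floating cells, with neither call nor stable sign. ZNF154, which is methylated in many tumors, had values of 0.35 ± 0.31 and 0.34 ± 0.33 without a call, and it overlaps the more abundant ZNF551. ZNF675 (TIZ), an inhibitor of TRAF6 signaling, had values of 0.05 ± 0.13 and 0.18 ± 0.14 without a call. ZNF558, a KRAB repressor of the mitophagy gene SPATA18, rose in both states, from 18, 19.3 and 22 CPM to 28.2, 28 and 25.8 CPM in attached cells, a log2 fold change of 0.47 ± 0.08 (SE, adjusted p = 1.01e-05), and from 27.4, 25.2 and 28.9 CPM to 39.1, 39.8 and 36.7 CPM in floating cells, a log2 fold change of 0.50 ± 0.07 (SE, adjusted p = 1.48e-06). ZNF473 (ZFP100), which serves histone pre-mRNA processing, had a value of 0.06 ± 0.07 in attached cells and rose by 0.25 ± 0.07 in floating cells (adjusted p = 0.00502), and it overlaps the more highly counted VRK3.

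Suspension was compared next, in control cells and in GFI1 cells. In control cells, 26 members were higher and 14 lower after suspension, 15.5% and 8.33% of those tested, where 19.6% of all tested genes were higher and 20.5% lower. In GFI1 cells, 14 were higher and 5 lower, 8.33% and 2.98%, where 15% of all tested genes were higher and 16.3% lower. The medians of the members were 0.08 and 0.07. These suspension comparisons share libraries with the GFI1 comparisons above, so the values of each are only given side by side. Without attached control 3, 9 members in place of 14 were lower in control cells, and without attached GFI1 2, 3 in place of 5 were lower in GFI1 cells.

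The members lower after suspension in control cells were led by ZNF43, a KRAB gene of the pericentromeric cluster. ZNF43 measured 4.59, 4.4 and 4.99 CPM in attached control and 2.43, 1.81 and 2.38 CPM in floating control libraries, a log2 fold change of -1.07 ± 0.18 (SE, adjusted p = 3.51e-05), with no overlap. ZNF714 measured 13, 11.9 and 12 CPM and 8.65, 7.95 and 8.61 CPM, a log2 fold change of -0.55 ± 0.12 (SE, adjusted p = 0.000535). ZNF675 of the same cluster had a log2 fold change of -0.41 (adjusted p = 0.0231), a call lost without attached control 3 or floating control 1 or 3 with a highest adjusted p of 0.11. In ZNF101–ZNF254 as a whole, 5 of 12 tested members were lower and 0 higher in control cells, and 4 were lower and 0 higher in GFI1 cells. Further members lower in control cells were ZNF114 at -0.54 ± 0.16 and ZNF324B at -0.45 ± 0.12, and the call for ZNF114 was lost without attached control 1 or floating control 1 (highest adjusted p of 0.0559). In GFI1 cells, ZNF714 fell from 8.06, 7.62 and 7.51 CPM to 3.64, 5.84 and 5.22 CPM, a log2 fold change of -0.65 ± 0.13 (SE, adjusted p = 0.000425), and ZNF431 fell from 10.6, 10.5 and 10.1 CPM to 7.56, 8.16 and 7.91 CPM, a log2 fold change of -0.40 ± 0.10 (SE, adjusted p = 0.00212). The groups of both genes were separate. ZNF551 had -0.31 ± 0.09, a call lost without attached GFI1 2 (adjusted p of 0.0929), and ZNF43 had -0.48 ± 0.18, a call lost without any 1 of 5 libraries (attached GFI1 1, 2 and 3, floating GFI1 2 and 3) with a highest adjusted p of 0.201. The call for ZNF43 was also lost with DESeq2 (adjusted p of 0.0739), without the low-count filter (0.0839) and with only the 2 groups compared (0.0605).

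The members higher after suspension included ZNF160 in control and in GFI1 cells. ZNF160 measured 17.8, 18.7 and 20.3 CPM in attached control and 27.7, 26.2 and 28.7 CPM in floating control libraries, a log2 fold change of 0.54 ± 0.08 (SE, adjusted p = 3.71e-06). In GFI1 cells it measured 21.6, 22.3 and 20.6 CPM attached and 32, 34.3 and 28.4 CPM floating, a log2 fold change of 0.55 ± 0.07 (SE, adjusted p = 2.31e-06). Its groups did not overlap in either kind of cell. ZNF558 and ZNF181 also rose in both, ZNF558 by 0.46 and 0.49 and ZNF181 by 0.50 and 0.37 on the log2 scale. ZNF432 rose by 0.73 ± 0.19 in control cells, ZNF615 by 0.61 ± 0.14, ZNF570 by 0.71 ± 0.23 and ZNF44 by 0.63 ± 0.21. Of these, ZNF432 and ZNF570 overlap the more highly counted ZNF841 and ZNF569. The call for ZNF570 was lost without attached control 2 or floating control 2 (highest adjusted p of 0.0898) and that for ZNF44 without attached control 2 or 3 or floating control 1 or 2 (highest adjusted p of 0.0876). In GFI1 cells, ZNF555 and ZNF554 of the first cluster rose by 0.60 ± 0.16 and 0.55 ± 0.17, the latter a call lost without attached GFI1 1 or floating GFI1 2 (highest adjusted p of 0.124).

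The GFI1 effect was then compared between the states as an interaction, taken as the effect in floating cells minus that in attached cells. It passed the test for 3 members in each direction, 1.79% and 1.79% of those tested, where 4.76% of all tested genes passed above 0 and 6.01% below, and 22 members (13.1%) had an unadjusted p under 0.05, against 22.7% of all tested genes. ZNF226 had a difference of -0.32 ± 0.09 (SE, adjusted p = 0.0228). It measured 17.3 to 18.5 CPM in attached control and 23 to 25.2 CPM in floating control libraries. The call was lost without attached GFI1 2 or 3, attached control 3 or floating control 2 (highest adjusted p of 0.078). It was also lost without the low-count filter (adjusted p of 0.0783). ZNF581 had a difference of -0.38 ± 0.11 (SE, adjusted p = 0.0305), from 22.7, 17.7 and 20.4 CPM in attached control, 29.1, 30.9 and 29 CPM in attached GFI1, 28, 32.7 and 27.4 CPM in floating control and 33.3, 34.5 and 31.4 CPM in floating GFI1 libraries, a call lost without attached GFI1 2, attached control 2 or 3, floating control 2 or floating GFI1 3 (highest adjusted p of 0.122). ZNF331, an imprinted gene at the end of the cluster ZNF175–ZNF331, had a difference of 0.35 ± 0.10 (SE, adjusted p = 0.0239), from 28.6, 31.7 and 33.7, 26.5, 28.9 and 28.5, 26.3, 25.1 and 27.9 and 31.6, 31 and 28.1 CPM in the same order. Its floating control libraries lay below its floating GFI1 libraries, and its attached groups overlapped by 1 library. The call was lost without attached GFI1 1, attached control 2 or 3, floating GFI1 1 or floating control 2 (highest adjusted p of 0.0844). The other 3 members, ZNF324B, ZNF587 and ZNF724, each lost their calls without any 1 of at least 10 libraries and under some alternatives of the processing. GFI1 RNA itself was higher in floating than in attached GFI1 libraries, and its part in these differences was not tested.

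Levels were also summed over members. The 246 members summed to 2164, 2073 and 2111 CPM in attached control libraries, to 2453, 2559 and 2518 CPM in attached GFI1 libraries, to 2195, 2189 and 2204 CPM in floating control libraries, and to 2642, 2702 and 2545 CPM in floating GFI1 libraries. The GFI1 libraries were above the control libraries of either state. In ZNF575–ZNF296 the sum was 192.7 ± 3.47 CPM (SD, n = 3) in attached control, 263.6 ± 2.93 in attached GFI1, 211.3 ± 3.05 in floating control and 274.7 ± 4.39 in floating GFI1 libraries. In ZNF101–ZNF254 the sum was 77.0 ± 2.58, 69.4 ± 3.28, 63.0 ± 1.85 and 59.9 ± 4.33 CPM in the same order, where the GFI1 libraries lay below the control libraries in attached cells and the groups overlapped in floating cells. In ZNF565–ZNF573, where ZNF146 took most of the counts, it was 363.6 ± 10.5, 355.8 ± 15.7, 369.5 ± 6.37 and 357.3 ± 19.5 CPM, with overlap between the groups. A sum is set by its most abundant genes, and these sums were not tested.

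**Figure D5:**
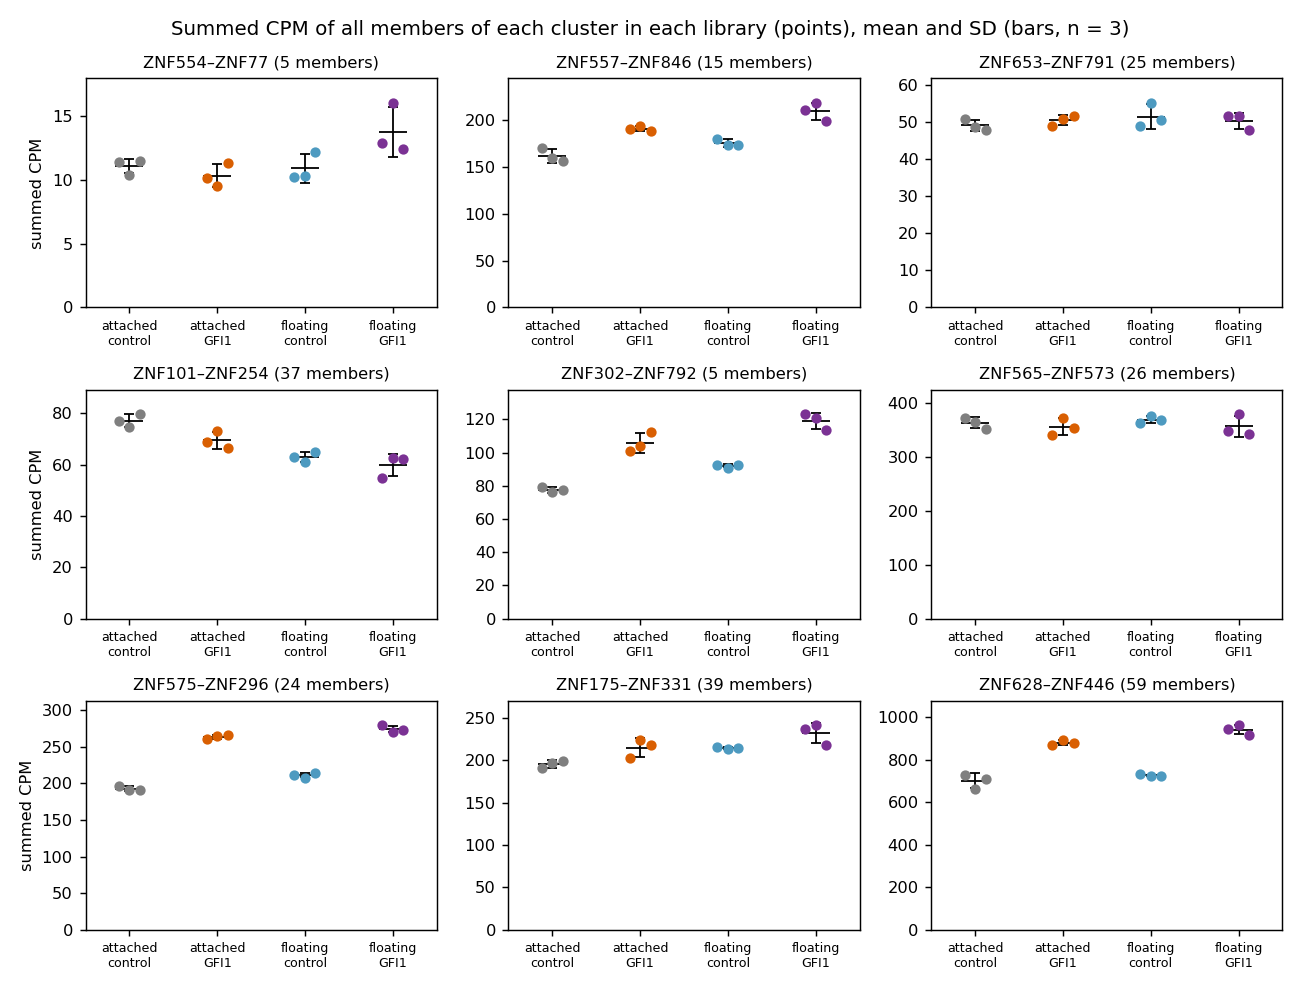
Summed CPM of all members of each cluster of 5 or more (vertical axes, each from 0) in the 12 libraries (points), with the mean and SD of each group of 3 (bars), by group (horizontal axis). GFI1 libraries lie above control libraries of the same state in ZNF575–ZNF296 and ZNF628–ZNF446, and attached control libraries are the highest in ZNF101–ZNF254.

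Calls were also counted by the letters of the promoter. Among tested members with a matched promoter, 28 held CCAATCA, of which 7 rose and 6 fell with GFI1 in the attached state and 8 rose and 7 fell in the floating state. Among the 124 without it, 75 rose and 6 fell when attached, and 72 rose and 4 fell when floating. Of all tested genes, 29.5% rose and 32.8% fell when attached, and 29.3% rose and 31.1% fell when floating. Calls of genes other than the members were not counted by motif. Medians were -0.07 with CCAATCA and 0.41 without in attached cells, and 0.12 and 0.34 in floating cells. Since 21 of the 28 lie in the clusters ZNF554–ZNF77, ZNF653–ZNF791 and ZNF101–ZNF254, the motif and the position cannot be told apart there, and the 7 elsewhere had a median of 0.34 beside 0.41 for the 121 without it. AATC, the core of sites bound by GFI1, is part of CCAATCA. It was present in 74.4% of the members' promoters and 69.6% of all, and in 63.3% and 67.6% once CCAATCA was masked. The longer form AAATCA was present in 4.19% of the members' promoters and 13.3% of all. Of 105 tested members with AATC, 56 rose and 9 fell when attached and 53 rose and 10 fell when floating, and of 47 without it 26 rose and 3 fell when attached and 27 rose and 1 fell when floating. All members with CCAATCA are among the 105. TCTGGGAA was held by 34 tested members, of which 23 rose and 3 fell when attached and 22 rose and 1 fell when floating. Among the 118 without it, 59 rose and 9 fell when attached, and 58 rose and 10 fell when floating. CCGGAAG was held by 69, of which 39 rose and 3 fell when attached and 39 rose and 2 fell when floating. Among the 83 without it, 43 rose and 9 fell when attached, and 41 rose and 9 fell when floating. A match of letters is not a bound site, and none of these splits was tested.

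A feature of the proteins was counted in the same way. The letters FxDVA of the KRAB box were found within the first 150 residues of 160 of the 246 members by translation of GENCODE v44 transcripts. Only these exact letters in the canonical transcript of each gene were sought. A KRAB box with other letters is missed, so members without them are not all without the domain. Of 107 tested members with these letters, 55.1% were higher and 9.35% lower in attached GFI1 cells, and of 61 without them 52.5% were higher and 9.84% lower. In floating cells the shares higher were 56.1% and 44.3%. Of the 52 tested members that no other gene of the table overlaps, 57.7% were higher in attached and 63.5% in floating cells, and of the 143 that share no more than 10% of their 100-base words with other genes, 55.2% and 53.1% were higher. The shares lower were 7.69% and 1.92% of the 52 and 8.39% and 6.99% of the 143. Beside these, 9.52% and 7.74% of all tested members were lower.

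A list of 16 KRAB corepressor and heterochromatin genes, all tested, was counted beside the same background of all tested genes. With GFI1, 4 of the 16 rose and 7 fell in the attached state, where 29.5% of all tested genes rose and 32.8% fell. In the floating state 5 rose and 8 fell, where 29.3% and 31.1% of all tested genes did. After suspension 0 rose and 11 fell in control cells (background 19.6% and 20.5%), and 1 rose and 8 fell in GFI1 cells (background 15% and 16.3%). The interaction passed above 0 for 2 genes and below 0 for 0 of the 16 (background 4.76% and 6.01%). TRIM28, the corepressor itself, lay between 730.3 and 762 CPM in attached control and between 529 and 562 CPM in attached GFI1 libraries, a log2 fold change of -0.46. It lay between 494 and 533 CPM in floating control and between 439 and 461 CPM in floating GFI1 libraries, a log2 fold change of -0.17. SETDB1 had log2 values of 0.17 and 0.07 in the 2 states, a call in attached cells (adjusted p = 0.0298) but not in floating cells (0.359). ATF7IP, which stabilizes SETDB1, had the largest rise of the list, 0.60 and 0.45. The largest falls were those of UHRF1, -1.26 and -1.14, and CHAF1B, -0.77 and -0.79. The part of these genes in the members' levels was not tested.

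Zinc-finger genes elsewhere in the genome, chosen by the same symbol rule, and the other protein-coding genes of chromosome 19 were set beside the members. Of 233 tested zinc-finger genes of other chromosomes, 34.3% rose and 18.9% fell with GFI1 when attached (median 0.08), while 38.2% rose and 16.7% fell when floating (median 0.13). Of 842 other protein-coding genes of chromosome 19, 33.0% were higher and 36.1% lower in attached cells (median -0.01). The members' shares of 54.2% and 9.52% stand beside these as a description, and the differences between the sets were not tested.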

How the data were processed

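Per the labels and the deposited table, the authors made poly-A RNA-Seq libraries and counted reads per gene on hg38 (GRCh38). The deposited values are raw counts, with gene position, length and type. The study's methods name Hisat2 and featureCounts, whereas the submitters' processing notes name Bowtie2 and HTSeq, and this was not resolved. Strandedness and the treatment of reads with several matches are not given in the sources used here.

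All genes were fitted in R 4.3.3 with edgeR 4.0.16 (filterByExpr with a minimum count of 10 and total of 15, TMM, quasi-likelihood test, 4 group means), which tested 17829 genes with a biological coefficient of variation of 4.86%. Two-sided p-values were adjusted by the Benjamini-Hochberg method over all tested genes, and SE is the log2 fold change over the root of F. CPM values are TMM scaled, and FPKM divides them by the length in the table. DESeq2 1.42.0, other scalings, filters and designs, and leaving out each of the 12 libraries were alternatives, and the code was tested on simulated data. Named members were those with a known role, those with the largest changes (up to 8, 5 or 4 per direction for the GFI1, suspension and interaction comparisons) among called members whose mean log2 CPM was 0 or more, with no overlap between the 2 groups compared, and the most abundant member of each cluster. A few others were named after their values were seen, such as ZNF724. The members and lists were chosen with earlier results of these data known. Every member's identifier was found in GENCODE v44, 100 of 246 at identical positions, and the table's positions are printed. Total counts were 17014188 to 20748677 per library, and 51 members with counts were left out by the filter.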

Additional observations from a re-analysis of the deposited data

Results flagged for a closer look

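The GFI1 effect differed between floating and attached cells for 6 members, as the interaction term of the model fitted across all genes (edgeR, adjusted p of 0.05 or less, floating minus attached on the log2 scale, n = 3 libraries per group). ZNF724, in the cluster ZNF101–ZNF254, had a difference of -1.97 (SE 0.64, adjusted p = 0.0478). It measured 0.357, 0.489 and 0.861 CPM in attached control, 0.451, 0.60 and 0.551 CPM in attached GFI1, 0.711, 0.783 and 0.567 CPM in floating control and 0.165, 0.165 and 0.149 CPM in floating GFI1 libraries. The floating GFI1 libraries were the lowest, every library was below 1 CPM, and 51.5% of its 100-base words occur in other genes. Its call was lost without any 1 of 11 libraries, with adjusted p from 0.057 to 0.11. It was also lost without the low-count filter (adjusted p of 0.108), with the replicate block (0.0586) and with a robust fit (0.0557). ZNF581 had a difference of -0.38 and ZNF226 of -0.32, with higher floating than attached controls. ZNF581 shares its span with ZNF580. ZNF324B had a difference of 0.52, from 11.4, 8.85 and 12.3 CPM in attached control, 8.9, 8.59 and 8.51 in attached GFI1, 8.06, 7.83 and 7.87 in floating control and 8.27, 9.37 and 9.55 in floating GFI1 libraries, and its call was lost without any 1 of 10 libraries, with a highest adjusted p of 0.139 and a value of 0.42 without attached control 3. The ZNF324B call was also lost with DESeq2 (adjusted p of 0.0716) and with library size only (0.0506). ZNF331 had a difference of 0.35 and ZNF587 of 0.28, the latter at an adjusted p of 0.0498 and lost without any 1 of 11 libraries, up to 0.133 without floating GFI1 1. The ZNF587 call was also lost with DESeq2 (adjusted p of 0.111), RLE factors (0.063), upper quartile scaling (0.0572) and library size only (0.0783). It was lost too with the replicate block (0.0544), with a robust fit (0.0549) and without the low-count filter (0.0884). ZNF587 shares 14.7% of its 100-base words with other genes. These 6 are fewer than the share of all genes that passed, and no cause of the differences was tested.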

How the results depend on the processing

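Counts of members called in the GFI1 comparisons stayed within 1.5 times of 91 and 16 (attached) and 87 and 13 (floating) under the alternatives run, except that library size only left 7 lower in attached cells. That scaling moves the median of all genes by about 0.14 in both GFI1 comparisons, to 0.14. The members' median was 0.307 to 0.497 in attached and 0.279 to 0.443 in floating cells over all alternatives. Among the smaller counts, DESeq2 left 3 members lower after suspension of GFI1 cells and 1 above 0 in the interaction, library size only 1 above 0, and no low-count filter 1 below 0. Of called interactions, 3 were above 0 and 3 below (50% above). There were 2 above and 3 below with RLE or upper quartile factors (40%), and 1 above and 3 below with library size only (25%). These shares rest on few calls.

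Leaving out each library gave 81 to 96 higher and 11 to 16 lower in attached cells, 69 to 90 and 11 to 14 in floating cells, 19 to 28 and 9 to 15 after suspension of control cells, 10 to 19 and 3 to 6 of GFI1 cells, and 0 to 2 above and 0 to 3 below 0 in the interaction. No interaction was called in either direction without floating control 2, none above 0 without attached GFI1 1 or attached control 3, and none below 0 without attached GFI1 2.

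Of 80 results for named members, 53 kept their direction and side of the threshold under every alternative. Values of 2 members changed sign without ever being called. ZNF420 in attached cells was 0.00467 with at least 10 counts in every library, 0.126 with library size only, 0.00869 with only the 2 groups compared, 0.0302 with upper quartile scaling, and 0.153, 0.0149, 0.001 and 0.0016 without attached control 1, attached GFI1 1, floating GFI1 1 and floating GFI1 2, in a range over all 12 from -0.177 to 0.153. In floating cells it was 0.0446 with library size only and from -0.189 to 0.00645 without single libraries. ZNF675 in attached cells was -0.0608 and -0.00405 without attached GFI1 2 and attached control 1, in a range from -0.0608 to 0.163. Among members with no overlapping gene, an alternative chosen after seeing the data, 1.92% were lower in floating cells, against 7.74% of all tested members. The causes of these changes were not tested.

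The replicate numbers of the labels gave no sign of pairing over all tested genes, where deviations of same-numbered libraries correlated between -0.031 and 0.031. Pairing that touched only some genes could go unseen in these correlations. With the replicate block, 90 and 15 members were called in attached cells, 88 and 12 in floating cells, 28 and 15 and 14 and 5 after suspension, and 2 and 2 in the interaction. A gap of 0.5 Mb gave 10 clusters and a gap of 2 Mb gave 6, in place of 9. Without the low-count filter 219 members were tested, with 84 higher and 15 lower in attached cells and 81 and 12 in floating cells. The 27 members without a count could not be tested.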
